A study of Mus musculus with 2 samples.

Results

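The neutrophil granule protein genes were examined in a list of Myb binding sites from WT mouse bone marrow. The members were 10 of 21951 protein-coding genes of the GENCODE vM21 annotation: the 5 primary granule genes Mpo, Elane, Prtn3, Ctsg and Ms4a3, and the 5 later granule genes Lyz2, Camp, Ngp, Ltf and Lcn2. A peak was tied to a gene when its summit, the position of highest signal, lay in the gene body or within 30 kb of it. By that rule 36 of the 25793 peaks in the list belonged to these genes, 25 to the primary genes and 11 to the later ones. The rule that chose the genes names them and uses no measured value, although earlier results of these data were known when it was written.

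Binding was measured by chromatin immunoprecipitation with an antibody against Myb followed by sequencing (ChIP-Seq) in Lin- cells, which are bone marrow cells left after depletion of cells that carry markers of mature blood lineages. The groups were WT_Myb, precipitated with the Myb antibody, and WT_IgG, precipitated with normal rabbit IgG as the background, with 1 library each. Both were labelled with the genotype WT, and 25000000 cells were used. In the study's methods WT is the name of Ep300 fl/fl mice on a C57BL/6 background that carry the floxed Ep300 alleles without Mx1-Cre and received poly(I:C) by injection as young adults. The methods of the Myb ChIP-Seq do not repeat whether its mice were floxed or injected, and give neither their age nor their number. Only the Myb peak list was analysed here. With 1 library there was no replicate and no test between genes, and each interval given covers counting error alone. A depleted population is a mixture, so a peak cannot be assigned to a cell type, and fewer cells that carry a site cannot be told apart from weaker binding in each cell.

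Neutrophils make their granules in sequence as they mature. Primary (azurophil) granules are filled in promyelocytes with myeloperoxidase and serine proteases, and the specific and gelatinase granules are filled later, in myelocytes and metamyelocytes, with antimicrobial and iron-binding proteins. Myb is a transcription factor of immature haematopoietic cells whose level falls as granulocytes mature, and it binds DNA words with the core AAC. Ms4a3 is a membrane protein of granulocyte and monocyte progenitors that is expressed along with the primary granule proteins, and Lyz2 is also made by monocytes and macrophages.

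Of the 36 peaks, 7 (19.4%) held a Myb word within 50 bp of the summit, near the share of 16.7% over all peaks. A Myb word was taken as CAACGG or CAACTG, or as TAACGG or TAACTG, on either strand, so that the reverse complements count too. These 7 sites are shown because each pairs a measured peak with a word of the kind Myb binds. Each is named for the nearest of the 10 genes and written on that gene's strand, in mm10 coordinates, with the Myb word in capitals. The name does not give the nearest start: the Prtn3 distal peak lay 219 bp from the Ptbp1 start, and the Lcn2 downstream peak 431 bp from the Ciz1 start. The Ctsg downstream peak lay 8340 bp from the Mcpt8 start and 9037 bp from the Ctsg start. The window reaches 50 bp on each side of the summit except at the Ctsg start, where it stops before the transcript.
Mpo upstream peak, chr11:87790175-87790275, plus strand: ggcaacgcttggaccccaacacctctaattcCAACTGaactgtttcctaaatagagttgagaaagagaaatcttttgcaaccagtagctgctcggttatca
Mpo start peak, chr11:87793412-87793512, plus strand: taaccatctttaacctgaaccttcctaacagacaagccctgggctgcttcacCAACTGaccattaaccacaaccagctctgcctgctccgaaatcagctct
Elane upstream peak, chr10:79884416-79884516, plus strand: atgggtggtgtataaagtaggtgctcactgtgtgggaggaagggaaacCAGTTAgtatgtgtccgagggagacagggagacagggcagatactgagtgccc
Prtn3 distal peak, chr10:79854158-79854258, plus strand: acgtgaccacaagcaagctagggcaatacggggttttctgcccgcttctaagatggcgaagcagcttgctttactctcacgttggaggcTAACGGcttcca
Ctsg start peak, chr14:56102575-56102644, minus strand: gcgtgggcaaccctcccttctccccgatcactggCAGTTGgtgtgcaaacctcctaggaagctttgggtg
Ctsg downstream peak, chr14:56093487-56093587, minus strand: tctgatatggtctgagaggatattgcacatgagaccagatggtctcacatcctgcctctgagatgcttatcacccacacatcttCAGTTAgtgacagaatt
Lcn2 downstream peak, chr2:32362717-32362817, minus strand: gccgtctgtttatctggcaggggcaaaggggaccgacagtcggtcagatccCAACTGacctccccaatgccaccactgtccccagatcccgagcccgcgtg

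The strongest peak of several genes held no such word, and those sites are shown for comparison, wholly in lower case. The strongest Prtn3 site is also the strongest peak within reach of Elane. The strongest peaks of Camp and Ltf lay in untranslated sequence of the neighbouring genes Cdc25a and Ccrl2 and are not printed.
Prtn3 upstream peak, chr10:79877967-79878067, plus strand: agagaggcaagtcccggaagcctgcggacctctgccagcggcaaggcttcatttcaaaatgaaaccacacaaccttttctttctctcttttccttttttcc
Ctsg upstream peak, chr14:56105691-56105791, minus strand: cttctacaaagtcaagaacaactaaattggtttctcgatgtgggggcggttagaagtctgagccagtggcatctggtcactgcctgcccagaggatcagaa
Ms4a3 start peak, chr19:11640865-11640965, minus strand: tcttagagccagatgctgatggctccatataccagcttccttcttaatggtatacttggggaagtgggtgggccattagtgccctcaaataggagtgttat
Lyz2 upstream peak, chr10:117301902-117302002, minus strand: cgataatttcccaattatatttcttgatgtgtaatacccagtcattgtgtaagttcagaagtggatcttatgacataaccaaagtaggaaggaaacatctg
Ngp downstream peak, chr9:110440118-110440218, plus strand: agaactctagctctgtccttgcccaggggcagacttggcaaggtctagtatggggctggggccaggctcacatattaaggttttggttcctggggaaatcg

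All 10 genes had at least 1 peak by the rule. The same held for 62.8% of all protein-coding genes, and for 57.0% of those no longer than Ltf, the longest of the 10 at 23497 bp. A peak within 30 kb was therefore common in the list, and the median protein-coding gene had 1. Mpo, Camp and Ngp had 2 peaks each, Lyz2 had 1, and Ltf and Lcn2 had 3 each. Ctsg and Ms4a3 had 5 each, more than 83.5% of genes no longer than Ltf. Elane had 11 peaks and Prtn3 had 10, above 98.0% and 97.2% of those genes, but the genes are neighbours on chromosome 10, 3073 bp apart, and 8 of their 13 different peaks were shared.

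The primary and later genes differed in where the peaks lay. A summit fell within 3 kb of a protein-coding start in 5 of 5 primary genes and in 0 of 5 later genes. The share was 38.3% over all protein-coding genes and 33.2% over those no longer than Ltf. Among the primary genes 8 peaks met that distance, and 5 of these had a fold enrichment above the upper quartile of the whole list. The 5 primary genes lay in 4 separate loci, since Elane and Prtn3 share one, and the later genes lay in 5. The comparison planned for the groups covered peaks, fold enrichment and reads, and did not name the distance from a start.

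The nearest summit was 20 bp from the start of Ctsg, 81 bp from Ms4a3, 110 bp from Elane, 119 bp from Mpo and 1597 bp from Prtn3. For the later genes it was 7965 bp from Lcn2, 11648 bp from Ngp, 13112 bp from Camp, 19631 bp from Lyz2 and 24448 bp from Ltf. The ranges did not overlap, with medians of 110 bp and 13112 bp. The median over all protein-coding genes was 16875 bp, so the later genes sat near the middle of the genome-wide distribution. Only 2.03% of protein-coding genes had a nearer summit than Ctsg, 8.20% than Ms4a3, 11.0% than Elane and 11.9% than Mpo, while the share was 36.1% for Prtn3 and between 43.2% and 54.5% for the later genes.

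**Figure D1:**
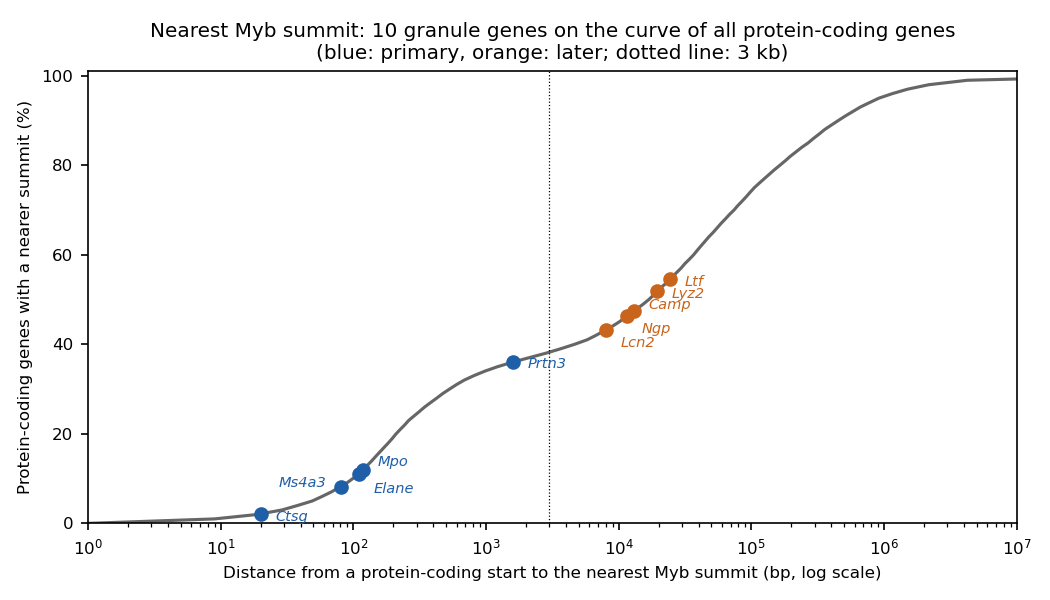
Distance in bp from a protein-coding start to the nearest Myb summit, on a log axis, against the percentage of protein-coding genes with a nearer summit. The gray curve is all protein-coding genes, blue points are the primary and orange points the later granule genes, and the dotted line marks 3 kb: the 5 primary genes lie to its left and the 5 later genes to its right.

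Mpo encodes myeloperoxidase, the enzyme that makes hypochlorous acid in the primary granule (chr11:87793581-87804413, plus strand, ENSMUSG00000009350.13). Its start peak had its summit 119 bp upstream and a fold enrichment over IgG of 11.3 (95% counting interval 8.23 to 15.1) from 42 reads. The other peak lay 3356 bp upstream, with a fold enrichment of 11.6 (8.46 to 15.7) from 41 reads. The intervals overlapped almost wholly, so the sites could not be ranked, and both held CAACTG. Both stood above 97.2% of all peaks in the list, whose median was 4.51 with quartiles of 3.73 and 5.95. The gene body held no summit, and the next peaks lay beyond the 30 kb limit at 37950 bp (10.5-fold) and 43765 bp (14.9-fold) upstream.

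Elane, for neutrophil elastase (chr10:79886247-79888215, plus strand, ENSMUSG00000020125.7), and Prtn3, for proteinase 3 (chr10:79874476-79883174, plus strand, ENSMUSG00000057729.12), are serine proteases in 1 cluster. The strongest peak there was 12.0-fold enriched (8.93 to 15.9) from 47 reads, above 97.9% of the list, with its summit 1597 bp upstream of the coding Prtn3 start. That summit lies in an intron of a noncoding Prtn3 transcript that begins farther upstream, and 8230 bp before the Elane start. A weaker peak lay 2118 bp into the coding transcript of Prtn3, in an intron, at 4.72-fold (2.93 to 7.28).

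Elane had a row of 3 peaks at its start. The peak 1781 bp upstream was 8.84-fold enriched (6.04 to 12.5) from 29 reads, and its Myb word, read as CAGTTA on the gene's strand, was centred 0.5 bp from the summit, the closest of the 7. The peak 1051 bp upstream was 4.03-fold enriched (2.27 to 6.74) from 12 reads. The peak at the start itself, 110 bp into the gene in coding sequence, was 4.75-fold enriched (2.83 to 7.60) from 15 reads. The last of these is close to the list median, and the intervals of all 3 overlap.

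The remaining peaks of this locus lay nearer to other genes. One stood 219 bp from the start of Ptbp1, an RNA-binding splicing regulator, at 8.36-fold (6.31 to 10.9) from 53 reads, the most reads of any peak of the 10 genes. It held the word TAACGG and is the site printed above as the Prtn3 distal peak. Another stood 2 bp from the start of Med16, a subunit of the Mediator complex, at 8.41-fold from 32 reads. The other 6, in or near Ptbp1, Plppr3, Kiss1r and R3hdm4, were between 2.41-fold and 4.48-fold enriched. The weakest, 1475 bp from the Ptbp1 start, was the 1 peak of the 36 with a q-value above 0.05. The last summit inside the 30 kb limit of Elane was 28795 bp from the gene (4.44-fold) and the first outside was 30104 bp from it (2.41-fold).

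Ctsg encodes cathepsin G, another serine protease of the primary granule (chr14:56099881-56102574, minus strand, ENSMUSG00000040314.2). Its start peak was 20 bp upstream, 9.06-fold enriched (6.24 to 12.8) from 30 reads, and held a word read as CAGTTG. A peak 3167 bp upstream reached 9.86-fold (7.10 to 13.4) from 39 reads and held no Myb word. As at Mpo, the start peak and a peak about 3 kb upstream had intervals that overlapped. Downstream peaks were weaker: 3.69-fold at 4094 bp, 4.95-fold at 9037 bp with a Myb word, and 2.97-fold at 17284 bp, which is 93 bp from the start of Mcpt8, a basophil protease. The peak at 9037 bp was also nearer to the start of Mcpt8, at 8340 bp.

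Ms4a3 (chr19:11629496-11640851, minus strand, ENSMUSG00000024681.11) had its start peak 81 bp upstream, 7.28-fold enriched (4.71 to 10.8) from 22 reads, above 86.6% of the list. An intronic peak 4390 bp into the gene was 5.72-fold enriched (3.50 to 8.91) from 17 reads. The other 3 were nearer to starts of other genes: Oosp2 (6.65-fold), Ms4a2 (4.15-fold) and Ms4a6d (7.26-fold, 27516 bp from Ms4a3). None of the 5 held a Myb word, which says only that those letters were not within 50 bp of these summits.

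**Figure D2:**
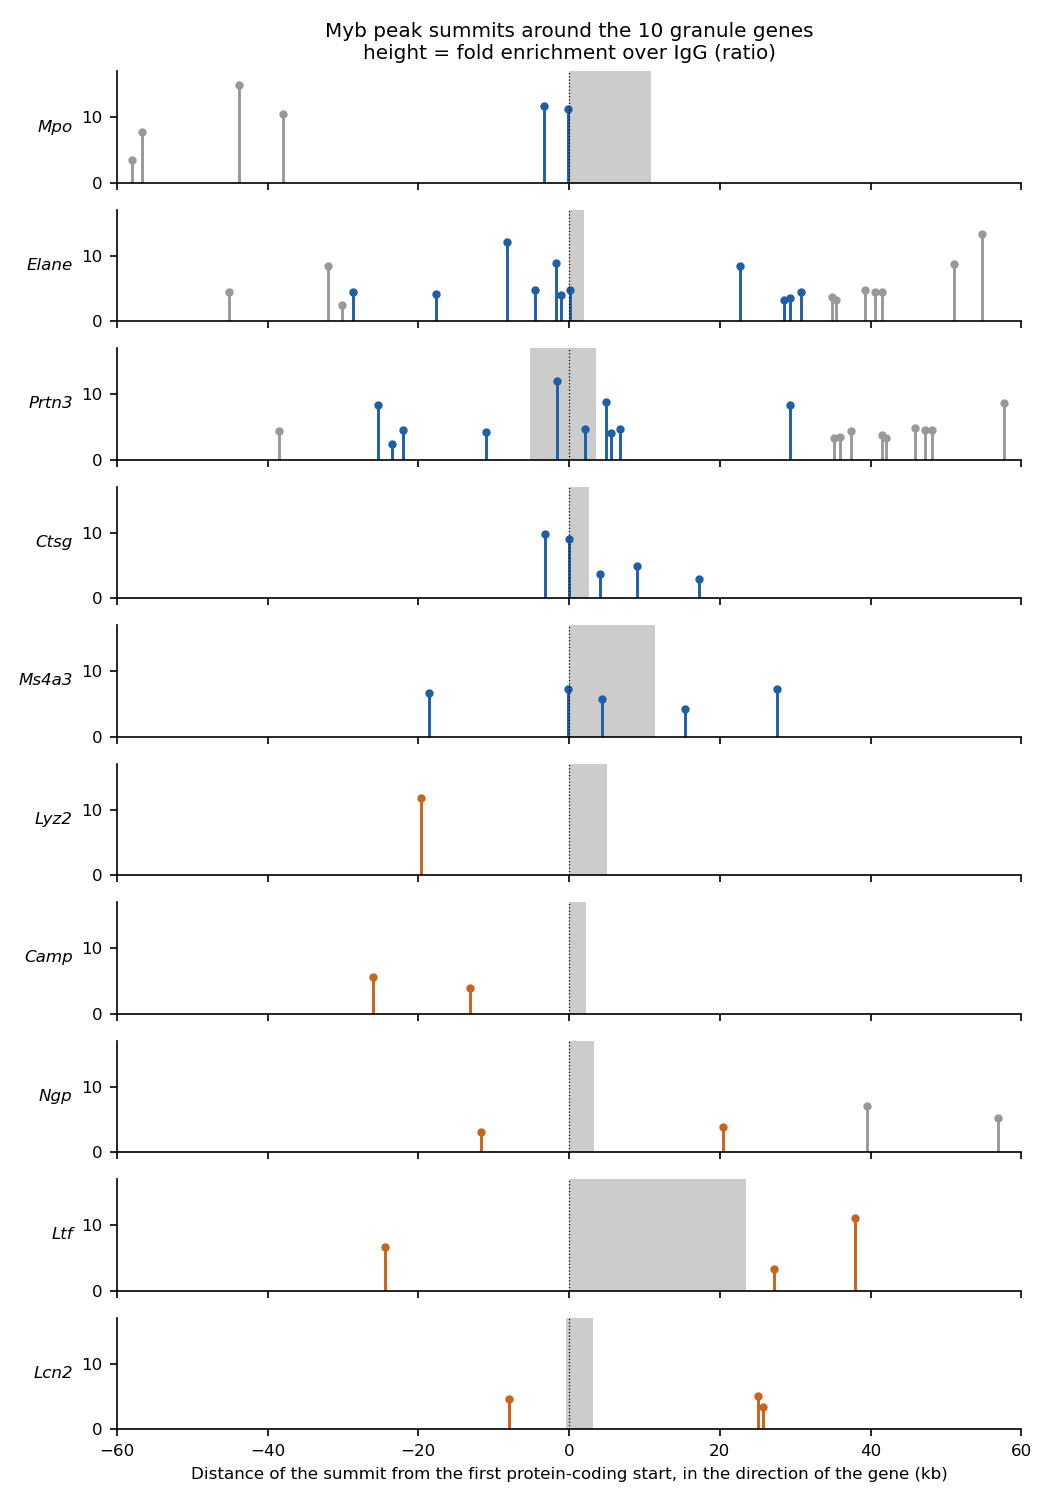
Myb peak summits around each of the 10 genes, with distance in kb from the first protein-coding start in the direction of the gene on the horizontal axis and fold enrichment over IgG as height. Blue and orange stems are peaks of primary and later genes by the 30 kb rule, gray stems lie outside it and gray shading is the gene body. Every primary gene has a blue stem within 3 kb of the dotted line of the start, although other blue stems stand far from it. No orange stem stands within 3 kb of that line.

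Lyz2 encodes lysozyme, which cleaves bacterial cell walls (chr10:117277331-117282321, minus strand, ENSMUSG00000069516.8). It had 1 peak, at 11.8-fold (8.53 to 16.0) from 39 reads, above 97.7% of the list. The summit was 19631 bp upstream of Lyz2 and 9084 bp from the start of the neighbouring lysozyme gene Lyz1, so it was closer to Lyz1.

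Camp encodes cathelicidin, an antimicrobial peptide precursor (chr9:109847379-109849617, minus strand, ENSMUSG00000038357.10). Its peaks lay 13112 bp and 26048 bp upstream, at 3.85-fold (2.17 to 6.45) from 12 reads and 5.60-fold (3.66 to 8.25) from 23 reads. The stronger was 86 bp from the start of Cdc25a, a cell cycle phosphatase, and the weaker was also nearer to Cdc25a, at 12850 bp.

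Ngp encodes neutrophilic granule protein (chr9:110419747-110423012, plus strand, ENSMUSG00000032484.8). Its peaks were among the weaker of the 36: 3.12-fold (1.96 to 4.77) at 11648 bp upstream, in coding sequence 114 bp from the start of Ptpn23, and 3.90-fold (2.45 to 5.96) at 20421 bp downstream, in an intron of Klhl18. The Klhl18 site was the 1 peak of the 11 whose nearest protein-coding start was that of the later granule gene itself.

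Ltf encodes lactoferrin, the iron-binding protein of the specific granule (chr9:111019271-111042767, plus strand, ENSMUSG00000032496.7). Its strongest peak reached 11.1-fold (8.14 to 14.8) from 44 reads but lay 14387 bp past the end of the gene and 116 bp from the start of Ccrl2, an atypical chemokine receptor. The others were 6.65-fold at 24448 bp upstream and 3.28-fold at 3630 bp past the gene.

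Lcn2 encodes lipocalin 2, which binds bacterial siderophores (chr2:32384633-32388252, minus strand, ENSMUSG00000026822.14). The peak 7965 bp upstream was 4.60-fold enriched (3.13 to 6.56) from 28 reads and stood 134 bp from the start of Ptges2. The downstream peaks, at 25030 bp (4.99-fold, 3.20 to 7.48) and 25782 bp (3.34-fold), lay in an intron of Ciz1. The first of these held CAACTG, centred 3.5 bp from the summit, and was the 1 later peak with a Myb word.

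The groups overlapped in peak strength. Fold enrichment ran from 2.41 to 12.0 with a median of 4.95 over the 25 primary peaks, and from 3.12 to 11.8 with a median of 4.60 over the 11 later peaks. Median read numbers were 20 and 21, beside 18 for all peaks. A fold enrichment above the upper quartile of the list was found for 11 primary peaks (44.0%) and 3 later peaks (27.3%). The strongest peak of all 5 primary genes and of 2 of the 5 later genes, Lyz2 and Ltf, passed that level, beside 34.5% of all protein-coding genes and 30.9% of those no longer than Ltf. A gene with more peaks has more chances to pass it, and Elane and Prtn3, with 11 and 10 peaks, passed it with the same peak.

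In order of the strongest peak, the genes ran Prtn3 and Elane (the same peak), Lyz2, Mpo, Ltf, Ctsg, Ms4a3, Camp, Lcn2 and Ngp. Neighbours in this order had overlapping intervals and were not resolved. At the ends the intervals did part: the upper bounds of Camp (8.25), Lcn2 (7.48) and Ngp (5.96) lay below the lower bounds of Prtn3 (8.93), Lyz2 (8.53) and Mpo (8.46).

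**Figure D3:**
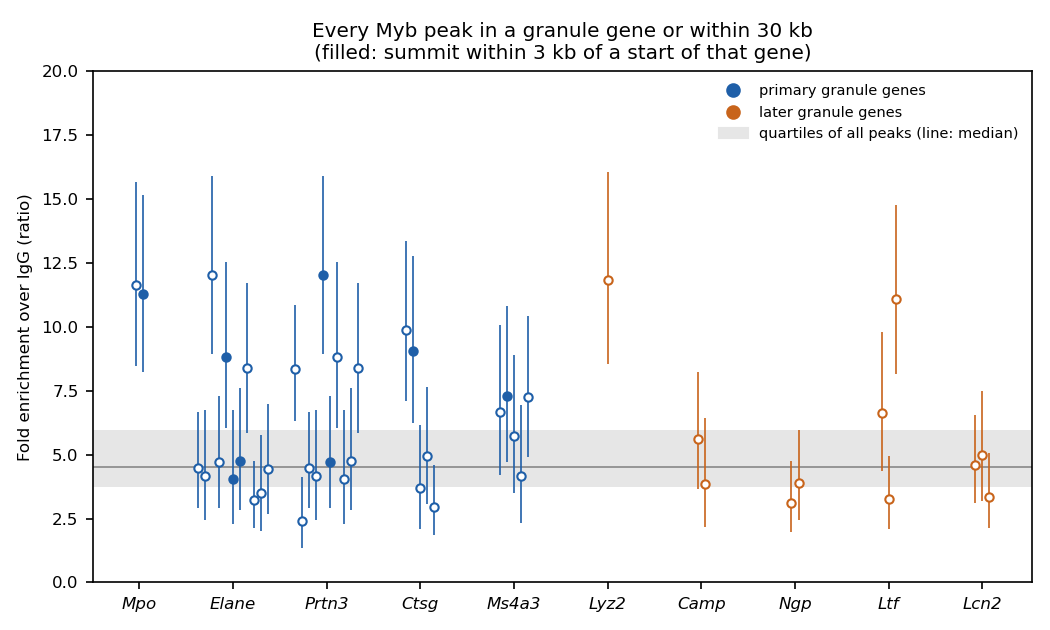
Fold enrichment over IgG (ratio) of every peak tied to each gene, with vertical bars for 95% counting intervals, filled points for summits within 3 kb of a start of that gene and a gray band for the quartiles of all peaks. Both groups span the same heights, up to 12.0 in primary and 11.8 in later genes, and filled points occur in the primary genes alone. Peaks shared by Elane and Prtn3 are drawn under both.

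Whose start a summit lay closest to also differed. For 12 of the 25 primary peaks the nearest protein-coding start was that of one of the 10 genes, and these had a median fold enrichment of 8.06, while the other 13 had a median of 4.44. For the later genes this was so for 1 of 11 peaks. Of the other 10 later peaks, 6 lay within 3 kb of another gene's start, at Ptpn23, Cdc25a, Ccrl2, Ptges2 and Ciz1. The same held for 10 of the other 13 primary peaks, so this place was common in both groups. Peaks near a start of any protein-coding gene made up 45.5% of the list.

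A Myb word stood within 50 bp of the summit in 6 of 25 primary peaks and 1 of 11 later peaks, together 19.4%, beside 16.7% of all peaks. The distance to the background depended on the search: within 25 bp it was 5 of 36 peaks (13.9%) beside 8.68%, and where the −log10 q-value reached 5 it was 6 of 18 (33.3%) beside 19.6%. With the looser word AACNG it was instead 16 of 36 (44.4%) beside 54.3%. By group the looser word stood at 14 of 25 primary peaks (56.0%) and 2 of 11 later peaks (18.2%). ETS words, GGAAGT or GGAAGC, stood at 12 of the 36 peaks, 9 primary and 3 later, beside 19.5% of all peaks. RUNX words, TGTGGT or TGCGGT, stood at 5 primary and 0 later peaks, beside 12.2%. GATA words, AGATAA or TGATAA, stood at 5 primary and 1 later peak, beside 13.8%. CEBP words, TTGCNNAA or TTNNGCAA, stood at 2 primary and 0 later peaks, beside 6.16%. All were searched on both strands, words of different families may share bases, and a match is a description of the sequence, not a binding site of that factor.

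The promoters of the 10 genes were searched as well. In the RefSeq promoter table (GRCm38.p6, 250 bp before to 50 bp after the start), which held all 10 genes, a Myb word occurred in 4 of 5 primary genes, Mpo, Elane, Prtn3 and Ctsg, and in 0 of 5 later genes, beside 28.3% of 32851 promoters. Each word is shown with 12 bases on each side, on the strand of the gene and in capitals. Of the 5 words, 4 lie inside a Myb peak, but 58.6% of all peaks hold such a word somewhere in the peak. The next Ctsg word is the one already printed in the Ctsg start peak. The Elane, Mpo and first Ctsg words lie more than 50 bp from the summit of their peak.
Prtn3, chr10:79879599-79879628, plus strand: ttagccactgttCAACGGctcccggcagag
Elane, chr10:79886249-79886278, plus strand: gatggggcaataCAACGGcctctggttcca
Mpo, chr11:87793606-87793635, plus strand: tcctgagaagccTAACTGtcttcagccaga
Ctsg, first word, chr14:56102650-56102679, minus strand: gcaaggacacggCAACTGtgtgggacacca
Ctsg, next word, chr14:56102593-56102622, minus strand: cccgatcactggCAGTTGgtgtgcaaacct

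The Elane word began 51 bp before the RefSeq start, inside the 4.75-fold peak. The Mpo word began 166 bp before it, inside the 11.3-fold peak, and the Ctsg words 93 bp and 36 bp before it, both inside the 9.06-fold peak. The Prtn3 word, 56 bp before its start, was in no peak, and the nearest peak was 815 bp away. RefSeq and GENCODE starts differ by 53 bp at Prtn3, 65 bp at Elane and 203 bp at Mpo, so these offsets depend on the annotation. From the GENCODE start, used for the summit distances, the Elane word began 14 bp and the Mpo word 37 bp after the start. The Prtn3 word began 3 bp before it.

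Other granule genes were counted in the same way. Of 6 further genes of primary granules and their enzymes, 6 had a peak within 30 kb and 4 had a summit within 3 kb of a start. They included Srgn, the proteoglycan core that packs granule proteases (10.1-fold, 53 reads, 1261 bp into the gene), Prss57, a neutrophil serine protease (7.66-fold, 30 reads, 25 bp), and Cd63, a granule membrane protein (6.75-fold, 22 reads, 1119 bp). Of 14 further genes of later granules, 9 had a peak within 30 kb, beside 62.8% of all genes, and 3 had a summit within 3 kb of a start, beside 38.3%. The later list was not uniform: Mmp8, neutrophil collagenase, had an 8.53-fold peak from 26 reads 37 bp upstream, whereas Fcnb (9.68-fold, 49 reads) had its strongest peak 20168 bp away and Lyz1 shared the 11.8-fold peak of Lyz2.

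Median distances to the nearest summit were 985.5 bp for the further primary genes and 19437.5 bp for the further later genes. The calgranulins S100a8 and S100a9, abundant cytosolic proteins of mature neutrophils, had 0 peaks within 30 kb, the nearest summits being 159294 bp and 186027 bp away. Of 8 granule genes of eosinophils, basophils and mast cells, 5 had a peak within 30 kb and 3 had one within 3 kb, shares near the 62.8% and 38.3% of all protein-coding genes. The strongest were at Mcpt8, which shared the 9.86-fold peak of Ctsg, and at Prg2 and Prg3, which shared an 8.36-fold peak.

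**Figure D4:**
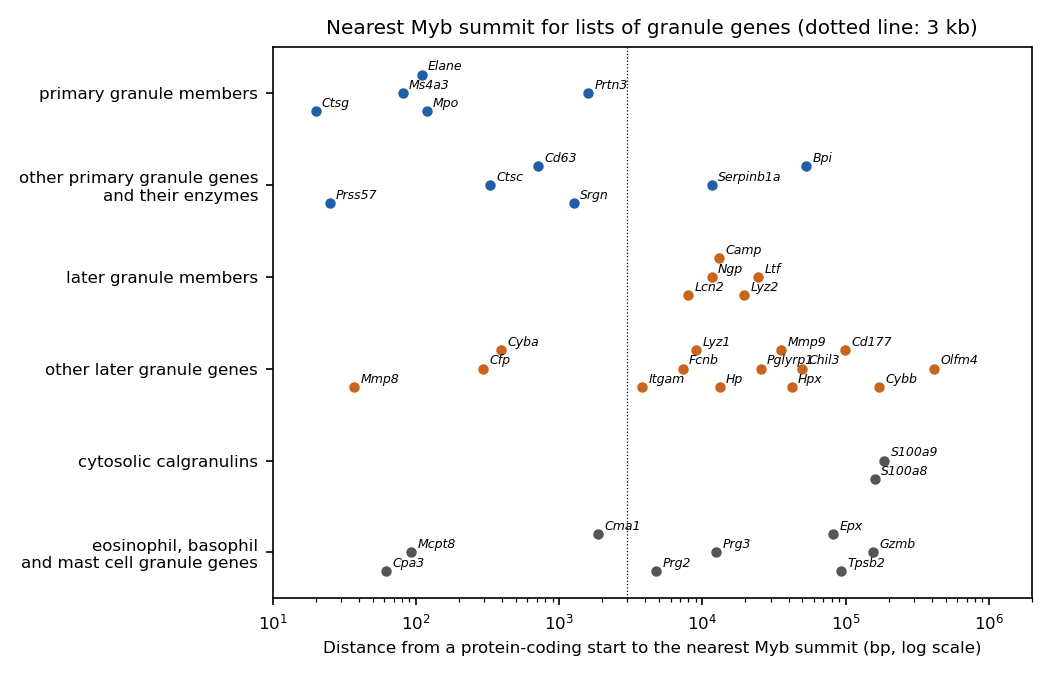
Distance in bp, on a log axis, from a protein-coding start to the nearest Myb summit for each gene of 6 lists of granule and calgranulin genes, with the dotted line at 3 kb. The 5 primary members and 4 of 6 further primary genes lie left of the line, and the 5 later members and 11 of 14 further later genes lie right of it.

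The list measures binding and holds no RNA, so the Lin- label could not be checked by expression. Peaks lay within 30 kb of 5 of 5 progenitor markers, with 3 of 5 within 3 kb of a start, beside 62.8% and 38.3% of all protein-coding genes. The counts were 3 of 4 and 0 of 4 for B cell markers, 3 of 4 and 0 of 4 for T cell markers, and 4 of 5 and 1 of 5 for markers of mature granulocytes and macrophages. The share of mature cells left in the preparation, and its part in these results, was not tested.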

How the data were processed

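Myb and IgG ChIP-Seq libraries of WT Lin- bone marrow cells were made by the authors with Tn5 tagging on the beads and sequenced single-end. Per the study's methods and the labels, the authors used Cutadapt 1.15 for trimming, BWA 0.7.13 for alignment to mm10 and Picard to remove duplicates. Reads of low mapping quality or in blacklisted regions were dropped. Narrow peaks came from MACS2 2.1.1.20160309 with IgG as the background, and were kept where calls from pseudo-replicates overlapped. The study's methods state a limit of q < 0.05 for these calls. The deposited list nonetheless holds a q-value above 0.05 at 1 of the 36 peaks, and shares over all peaks use the list as deposited. Pseudo-replicates are splits of 1 library and carry no biological variation. The deposited list gives, for each peak, a fold enrichment (a ratio), a −log10 p-value, a −log10 q-value and a score derived from the p-value, which was not used. The fold enrichment and p-value deposited by the authors fix the reads at each summit: whole numbers were found for 100% of peaks within 0.0005 on the −log10 scale, with a median of 18 reads and a range of 7 to 130. Exact Poisson 95% intervals were taken on these reads with the background held fixed, so duplicates and the error of the IgG background are not covered. The total depth of the libraries is not given in the sources used here.

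Summits were tied to GENCODE vM21 genes in the body or within 30 kb. Distances run from the nearest start of a basic protein-coding transcript. Words were searched in the mm10 sequence within 50 bp of a summit, and in RefSeq promoters. The sequence of mm10 was read from RefSeq GRCm38.p6. The members, gene lists and words were chosen with earlier results of these data known. Named genes were the 10 members, the genes with the start nearest to each of their peaks, and the 3 genes of each further list with the highest fold enrichment within 30 kb. The Mpo peaks past 30 kb and the calgranulin distances were added after their values were seen. Windows of 10 kb, 50 kb and 3 kb, other q-value limits, any-base overlap, nearest-start assignment and other word searches were tried as alternatives. Read recovery was tested on simulated data. Python 3.11.15, pandas 2.3.3, numpy 2.4.6, scipy 1.17.1, pysam 0.24.0 and matplotlib 3.10.9 were used.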

Additional observations from a re-analysis of the deposited data

How the results depend on the processing

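The count of primary genes with a peak was 5 under each of the windows, q-value limits and assignment rules tried. With summits taken in the gene or within 10 kb, 2 later genes had a peak, and 15 primary and 2 later peaks remained tied. For this and the other alternatives no share of all protein-coding genes was taken, so the gene counts have no background beside them. Within 50 kb the peaks numbered 34 and 12, and the medians of fold enrichment were 4.79 and 4.80, so the small difference of the medians turned. Among peaks whose −log10 q-value reached 5, 12 primary and 6 later peaks were left, and both medians rose, to 8.62 and 6.12. Assigning each peak to its nearest start left 6 of the 10 genes with a peak, 1 of them later, from 12 primary peaks and 1 later peak, with a primary median of 8.06. A window of the gene and 3 kb, chosen after seeing the data, left 5 genes, 0 of them later, with 10 primary peaks and 0 later peaks, hence no later median. Any-base overlap changed no count. The strongest peak of a gene moved past its counting interval at 3 genes: Ltf (3.28-fold within 10 kb), Ngp (6.98-fold within 50 kb) and Elane (8.84-fold by nearest start and within 3 kb). The peaks with a Myb word numbered 5 in a window of 25 bp (8.68% of all peaks), 6 of 18 at the stricter q-value (19.6%), 14 in a window of 100 bp (30.0%), 16 with the looser word AACNG (54.3%) and 23 over the whole peak (58.6%). No replicate could be left out and no paired analysis was possible because each group holds 1 library. At 12 reads, as at Camp, the interval of a fold enrichment spans 2.17 to 6.45, so weak peaks cannot be ranked, and the absence of a peak at a start is not evidence that Myb is not bound there.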

Other observations

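The promoters of the 10 genes differed in other words too, in a search added after the Myb words had been counted. In the RefSeq promoters a CEBP word (TTGCNNAA or TTNNGCAA), of the family of C/EBP factors that act in granulocyte maturation, occurred in 3 of 5 later genes, Ngp, Ltf and Lcn2, and in 1 of 5 primary genes, Ms4a3, beside 10.8% of 32851 promoters. Ms4a3 was thus the 1 primary gene whose promoter held a CEBP word and no Myb word, although it had a Myb peak 81 bp from its start. ETS words occurred in 5 of 5 primary and 3 of 5 later promoters, beside 43.6%. RUNX words occurred in 1 primary and 2 later promoters, beside 22.4%, and GATA words in 0 primary promoters and 1 later promoter, beside 18.6%. These are counts of letters in 10 promoters, with no test.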
